A study of Homo sapiens with 5 samples.

Results

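Peaks of the histone mark H2A-K130ac (histone H2A acetylated at lysine 130) that lay in exons or in 5′ UTRs were described in C4-2B cells after abiraterone and after Romidepsin. A peak was a member when the annotation deposited with the peak list labelled it as exon or as 5′ UTR. By this rule 2027 of 67806 annotated peaks were members in the abiraterone list, of which 1834 carried an exon label and 193 a 5′ UTR label. In the Romidepsin list 3336 of 91398 annotated peaks were members, with 3020 exon labels and 316 5′ UTR labels. Every exon label named a transcript, the number of the exon and the number of exons in that transcript, so that the place of each peak along its transcript could be read.

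Acetylation of histones loosens their hold on DNA and is known mostly from promoters and enhancers, while exons are the parts of a gene that remain in the mature transcript. The 5′ UTR is the exonic stretch ahead of the start codon, and it can be split over several exons far from the start of transcription. C4-2B is known as a prostate cancer line that derives from LNCaP and grows without androgen, although the sample records call it breast cancer. Abiraterone inhibits CYP17A1, an enzyme of androgen synthesis, and Romidepsin inhibits class I histone deacetylases. The treatments were read from the sample titles, which shorten them to abi and romi. Each treatment had 1 ChIP-seq library in the records, and no untreated C4-2B library was used here. The dose and duration for C4-2B are not stated in the records, whose treatment text describes VCaP cells with Romidepsin. Therefore no value below separates an effect of treatment from a difference between libraries, and none was tested between them. The 3 VCaP samples were not analysed here. Intervals below are exact 95% Clopper-Pearson intervals, which cover counting error only.

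Most members were weak peaks, particularly in the Romidepsin list. A q-value is the false discovery rate given by the peak caller, so that a −log10 q of 2 equals a q of 0.01. Under abiraterone 473 of 1834 exon peaks reached this level (25.8%, interval 23.8 to 27.9), beside 24.9% of all peaks in that list. Under Romidepsin 71 of 3020 exon peaks did (2.35%, with an upper limit of 2.96), beside 2.73% of all its peaks. Thus the exon peaks were scored close to the lists they came from. At the milder level of 1.3, near a q of 0.05, the counts rose to 87.9% and 12.02% of the exon peaks. The share of all peaks at this milder level was not computed. The 5′ UTR peaks reached a −log10 q of 2 in 50 of 193 cases under abiraterone (25.9%) and in 14 of 316 cases under Romidepsin (4.43%, interval 2.44 to 7.32). Scores were heavily tied. A single value, a −log10 q of 1.57, was shared by 48.7% of the abiraterone exon peaks, and the value 0.717 by 52.3% of the Romidepsin exon peaks. Over all peaks of each list, these values were shared by 50.5% and 50.9%.

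Fold over input, the height of a peak relative to the control library, did not set exon peaks apart within a list. Its median was 2.83 for exon peaks, for 5′ UTR peaks, for intron peaks and for all peaks of the abiraterone list, and 2.61 for each of these classes in the Romidepsin list. The folds of exon peaks spanned 1.79 to 10.0 in the abiraterone list and 1.74 to 6.88 in the Romidepsin list. Across classes of peaks ranked by fold, the share labelled exon stayed between 2.64% and 3.20% in the former list and between 2.94% and 3.72% in the latter. Exon peaks were therefore found among strong and weak peaks alike. Folds were not compared between the lists, because they were not normalized between the libraries. The only input library in the series is of VCaP cells, and the library that served as control for the C4-2B peaks was not identified here.

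Exon labels made up 2.70% of the abiraterone list (interval 2.58 to 2.83) and 3.30% of the Romidepsin list (interval 3.19 to 3.42). As a share of exon and intron peaks together they made up 6.39% and 8.02%. Exon peaks were also wider, with a median of 364 bp against 337 bp for intron peaks under abiraterone, and 390 bp against 344 bp under Romidepsin. Any shared base pair is enough for an exon label, so wide peaks touch exons more often. How much of the width differences comes from this rule was not tested. The exon share moved with the width of the peak. Among abiraterone peaks of up to 200 bp, 5.04% of exon and intron peaks carried the exon label, and among those over 800 bp 9.65% did (interval 7.54 to 12.1). Under Romidepsin the share went from 5.64% to 16.7% (interval 14.5 to 19.1). When peaks of 400 bp or more were left out, a choice made after seeing the data, exon labels made up 2.36% and 2.69% of all peaks. Width differed between the lists, and its part in their exon shares was not tested.

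**Figure D1:**
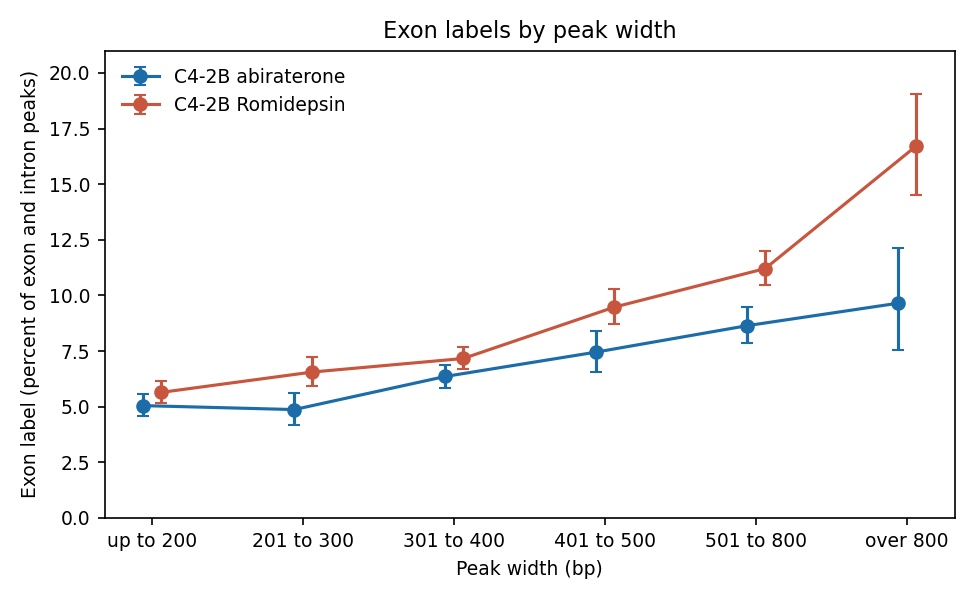
Share of exon and intron peaks that carried an exon label (vertical axis, percent) in 6 classes of peak width (horizontal axis, bp), for the abiraterone and the Romidepsin list. Points are shares and bars are exact 95% intervals for counting error. The share went up from 5.04% to 9.65% for abiraterone peaks, and for Romidepsin peaks from 5.64% to 16.7%. Any shared base pair is enough for an exon label, so wide peaks touch exons more often.

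Within the transcripts, exon peaks were at internal exons in 1483 of 1834 cases under abiraterone (80.9%) and in 2526 of 3020 under Romidepsin (83.6%). First exons held 22 and 36 peaks (1.20% and 1.19%). If each exon of the labelled transcripts had been counted once, first exons would have been 10.0% and 9.95%. That count would give 75.0% and 76.15% for internal exons, and 10.0% and 9.95% for last exons. The annotation gives the promoter label to every peak within 3 kb of a start site before it considers exons, so few first exons can carry an exon label. The exon peak nearest to a start site lay at 3025 bp under abiraterone and at 3002 bp under Romidepsin, while promoter peaks reached out to 3000 bp. Last exons, which usually hold the stop codon and the 3′ UTR, carried 239 peaks (13.0%) and 339 peaks (11.2%). A peak over a 3′ UTR has a label of its own that precedes exon, so these counts leave out such peaks. Transcripts of a single exon accounted for 90 and 119 peaks. The labelled transcript had a median of 13 exons in both lists.

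In transcripts of 5 or more exons, exon labels were few at the 5′ end, where the promoter and 5′ UTR labels take precedence, and were otherwise spread along the gene. The low share at the 5′ end is thus in part set by the labelling and is given as a description. The first 20% of the exon numbers held 10.1% of 1562 abiraterone peaks (interval 8.60 to 11.7) and 9.39% of 2608 Romidepsin peaks (interval 8.30 to 10.6), where counting each exon once gives 19.9% and 19.8%. Exon 2 held 4.74% and 4.33%, against 7.68% and 7.78%. In the following steps of 20%, the shares were 20.7%, 24.1%, 22.5% and 22.7% under abiraterone, and 19.6%, 23.4%, 25.4% and 22.2% under Romidepsin. The next to last exon held 9.60% and 10.9%. Both lists showed a low share at the 5′ end and a plateau after it. The plateau was highest from 40% to 60% of the exon numbers under abiraterone and from 60% to 80% under Romidepsin, although the intervals of neighbouring steps overlapped from 40% on.

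**Figure D2:**
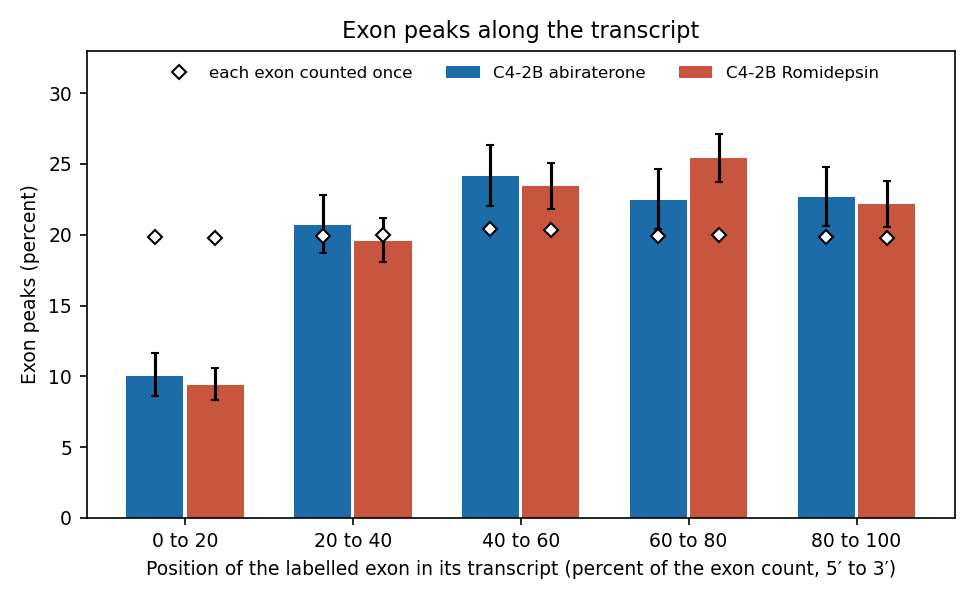
Share of exon peaks (vertical axis, percent) in steps of 20% of the exon numbers from the 5′ to the 3′ end (horizontal axis) for transcripts of 5 or more exons; bars are the 2 lists, error bars are exact 95% intervals and diamonds give the share if each exon were counted once. The first step held 10.1% and 9.39%, against 19.9% and 19.8% at the diamonds.

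The exon peak of highest fold under abiraterone lay on NAT10, which encodes an RNA cytidine acetyltransferase. It was labelled as exon 5 of 29 at chr11:34135189-34135414 (hg19) (fold 10.0, −log10 q 12.8), and it ranked 23rd by fold among all 67806 peaks. No Romidepsin peak overlapped it. Instead, NAT10 carried 4 exon peaks in the Romidepsin list, at exons 9, 20, 24 and 27 of 29, with folds of 2.61, 2.61, 2.61 and 5.23. Next under abiraterone came RAB3GAP2, a subunit of a RAB GTPase regulator, at exon 22 of 35 with a fold of 8.53. CHD5, a chromatin remodeller known as a tumour suppressor, followed at exon 3 of 42 with a fold of 7.60 and a peak of 1011 bp. DIPK2B at exon 2 of 5 (fold 6.65) and the zinc finger gene ZDBF2 at exon 5 of 5 (fold 6.61) completed the strongest 5. None of these 5 peaks was overlapped by a Romidepsin peak, and only 4.04% of all abiraterone peaks were.

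Under Romidepsin, MORC3, which encodes a nuclear ATPase that reads methylated histone H3, led the exon peaks at exon 6 of 17 (chr21:37713485-37714108, fold 6.88, −log10 q 5.10). It ranked 86th by fold among all peaks. GBP2, an interferon-induced GTPase, followed at exon 7 of 15 with a fold of 6.76, and RIGI, a sensor of viral RNA, at exon 11 of 19 with the same fold. RFX7, a transcription factor of the RFX family, had a fold of 6.33 at exon 5 of 6. A further peak of fold 6.43 was labelled as exon 2 of 3 of MIR548I4, but RefSeq places that gene on another chromosome, so the name is uncertain. GBP2 alone of these had an overlapping abiraterone peak, on the same exon, with a fold of 2.78. Of all Romidepsin peaks, 2.90% were overlapped by an abiraterone peak.

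Exon labels were spread thinly over many genes. The abiraterone exon peaks fell on 1594 genes or transcripts, and 1395 of these had 1 exon peak. Different exons of 1 transcript were labelled in 134 genes or transcripts (8.41%), and 3 or more different exons in 18. The Romidepsin exon peaks fell on 2522 genes or transcripts, of which 301 (11.9%) had several labelled exons and 61 had 3 or more. Of those with several labelled exons, 126 and 293 had a gene number. Later totals of genes with several labelled exons, or labelled in both lists, also include transcripts without a gene number. Protein-coding genes held 81.8% and 84.6% of the exon peaks, and long noncoding RNAs held 95 and 157 peaks. Genes with several labelled exons rested on weak peaks. With peaks of a −log10 q of 2 or more alone, 14 such genes remained under abiraterone and 0 under Romidepsin.

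Among named genes, DIP2C, VPS13D and ZFYVE26 had the most labelled exons under abiraterone, with 4 each. VPS13D, a lipid transfer protein with a role in mitochondria, was labelled at exons 5, 13, 38 and 59 of 70 with folds from 2.70 to 2.85. DIP2C was labelled at exons 10, 29, 30 and 35 of 37, the strongest at exon 10 with a fold of 3.80. BIRC6, an inhibitor of apoptosis, had 5 exon peaks on 3 exons, with a pair of peaks on exon 29 and another on exon 46 of 74. All 5 peaks of BIRC6 were 125 or 126 bp wide, and 125 bp was the narrowest width in that list. PKHD1, ASH1L, CD163L1, COL22A1, DNMBP and HMCN1 had 3 labelled exons each, as did further genes. In the Romidepsin list CACNA1S, CAPN9, HECTD4, LRP1B and TTN had 5 each. CACNA1S, the calcium channel of skeletal muscle, was labelled at exons 15, 16, 23, 41 and 43 of 44. HECTD4 was labelled at exons 15, 18, 26, 66 and 71 of 76, with folds of 2.58 to 2.61 throughout. LRP1, DNAH9, EVC, HMCN1 and IQGAP3 had 4, as did KMT2A, MYH9, NAT10, RYR2, RYR3, SLIT3, TNXB and XDH. As the plot of labelled exons shows, these peaks were scattered along the transcripts in both lists.

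**Figure D3:**
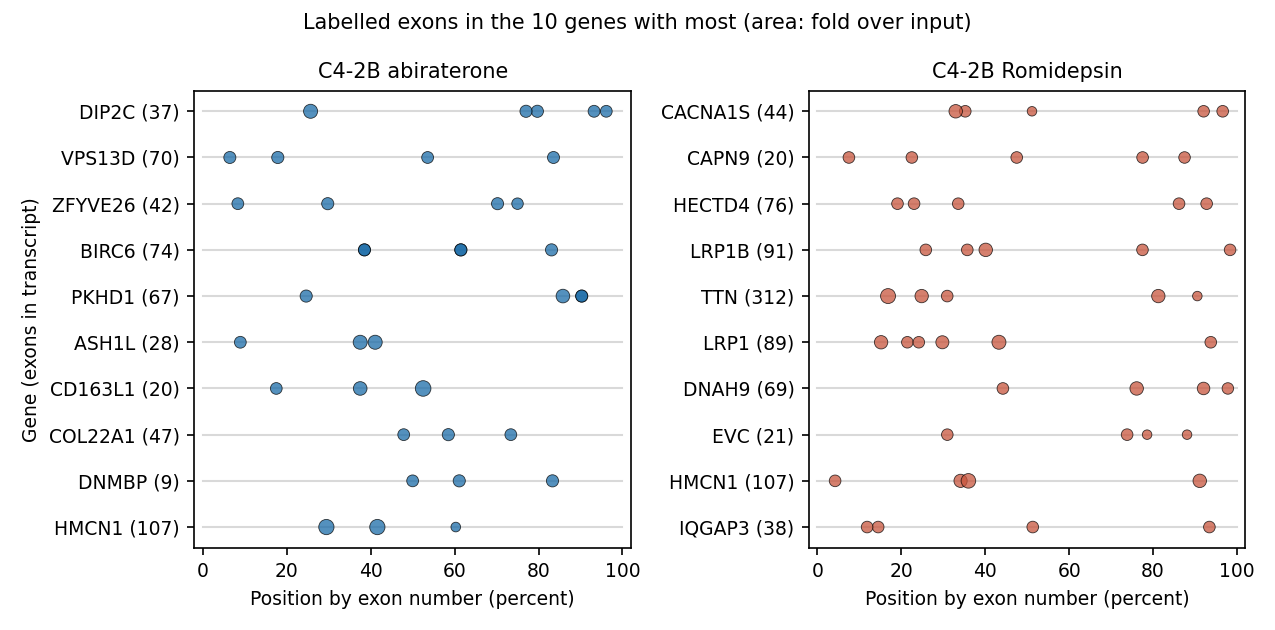
Exon peaks of 10 genes with the most labelled exons in each list (ties taken by number of exon peaks, then by symbol), placed by exon number as a percent of the exons of the labelled transcript (horizontal axis); the number behind each gene is the exon count, and the area of a point is proportional to fold over input. The points run along the transcripts, and the largest area among the genes drawn belongs to CD163L1 under abiraterone, with a fold of 4.68 at exon 11 of 20.

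Exon and intron peaks were then set side by side within genes. Genes with a gene number and at least 3 exon and intron peaks together numbered 3096 under abiraterone and 3817 under Romidepsin. All of the exon and intron peaks were in exons for 4 (0.129%) and 10 (0.262%) of these genes. All of them were in introns for 2384 (77.0%) and 2681 (70.2%). Peaks with promoter or other labels were not counted. TTN under abiraterone had 2 promoter peaks, and LRRC59 under Romidepsin had 3. Exon peaks outnumbered intron peaks in 29 and 85 genes. Exon lengths were not used here, so these shares are not corrected for the length of introns.

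The 4 genes under abiraterone were ZFYVE26, CD163L1, MUC2 and TTN. ZFYVE26, which encodes spastizin, a protein of lysosome recycling, had 4 peaks at exons 4, 13, 30 and 32 of 42 over 43517 bp, with folds of 2.69, 2.84, 2.82 and 2.55. The scavenger receptor gene CD163L1 had peaks at exons 4, 8 and 11 of 20, with folds of 2.65, 3.58 and 4.68. MUC2, the secreted mucin of the gut, had peaks at exons 30, 32 and 37 of 51 within 5720 bp, with folds of 3.78, 2.85 and 2.80. TTN, the giant protein of the sarcomere, had 3 exon peaks over 123789 bp with folds of 2.69 to 2.85. Between the outermost exon peaks of each of these 4 genes, no peak of any other label was present in that list. The genes were chosen for having 0 intron peaks, so this was in part fixed by the choice.

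Under Romidepsin the 10 genes were TTN, BPTF, MYH9, AKAP11, ANKRD52, EIF3A, LRRC59, PPP1R7, PTPN7 and USP5. TTN was labelled at exons 53, 78, 97, 254 and 283 of 312, with folds of 4.30, 3.44, 2.61, 3.44 and 1.74, none of them at an exon number labelled under abiraterone. BPTF, the subunit of the NURF chromatin remodeller that reads methylated and acetylated histones, had 5 exon peaks over 52779 bp with folds of 2.61 to 3.42. MYH9, the heavy chain of nonmuscle myosin, had 4, at exons 4, 15, 17 and 28 of 41, and that at exon 4 (chr22:36722952-36723648) reached a fold of 6.10 with 3.91 as its −log10 q. EIF3A, a subunit of a translation initiation factor, had peaks at exons 4, 6 and 21 of 22 with folds of 3.44, 2.58 and 4.35. USP5, a deubiquitinase, had 3 with folds of 2.58 to 2.61. The 3 peaks of AKAP11, a scaffold of protein kinase A, lay on a single exon, exon 8 of 13. These 10 genes were chosen for having 0 intron peaks, so only intron peaks of other genes were free to lie between their outermost exon peaks. None did, in spans of 2898 bp (AKAP11) to 179289 bp (TTN). The number to be expected in such spans was not computed. A peak with another label lay within that span in TTN, and another in EIF3A.

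Other genes with several exon peaks had many more intron peaks. TENM2 under abiraterone had 3 exon and 37 intron peaks. Under Romidepsin LRP1B had 5 and 48, SLIT3 4 and 47, PARD3B 3 and 42, and RYR2 4 and 21. By contrast LRP1, a receptor of lipoprotein uptake related to LRP1B, had 6 exon and 2 intron peaks, and KMT2A, a histone H3 lysine 4 methyltransferase, 4 and 1.

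**Figure D4:**
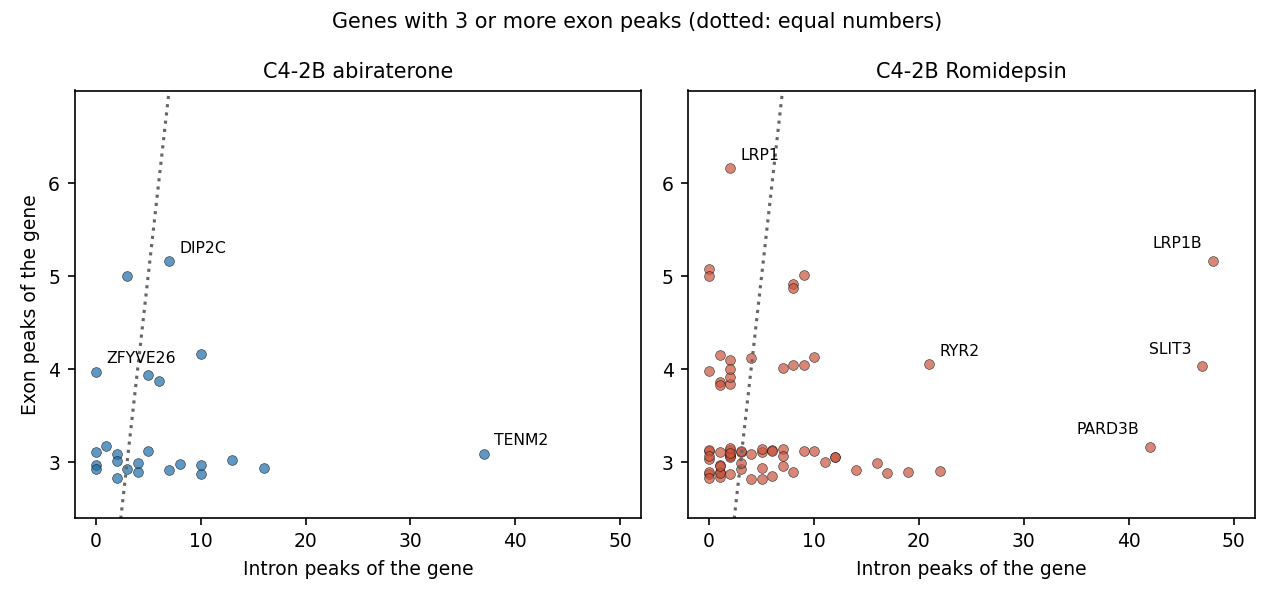
Genes with 3 or more exon peaks by their number of intron peaks (horizontal axis) and exon peaks (vertical axis, spread slightly around whole numbers), in each list; the dotted line marks equal numbers. The points at 0 intron peaks are the 4 genes under abiraterone and the 10 under Romidepsin, while LRP1B had 5 exon and 48 intron peaks.

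In several gene groups whose genes have many exons, the exon share was above that of the whole list. The groups were drawn up with earlier results of these data known, several were chosen because their genes have many exons, and no test was made. Laminins, which build basement membranes, had 11 exon peaks among 56 exon and intron peaks under abiraterone (19.6%, interval 10.2 to 32.4) and 13 of 57 under Romidepsin (22.8%, interval 12.7 to 35.8). These stand beside 6.39% and 8.02% over all genes. Axonemal dynein heavy chains, the motors of cilia, had 12 of 99 (12.1%, interval 6.42 to 20.2) and 18 of 89 (20.2%, interval 12.4 to 30.1). Collagens had 18 of 156 (11.5%, interval 6.98 to 17.6) and 31 of 232 (13.4%, interval 9.26 to 18.4). The giant muscle genes, which included TTN and the ryanodine receptors, had 11 of 99 (11.1%, interval 5.68 to 19.0, which includes the share over all genes) and 23 of 125 (18.4%, whose upper limit is 26.3).

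Chromatin regulators had 9 of 108 exon and intron peaks in exons under abiraterone (8.33%, interval 3.88 to 15.2) and 22 of 147 under Romidepsin (15.0%, interval 9.62 to 21.8). CHD5 (fold 7.60) and CHD1 (2 exons, highest fold 4.70), both remodellers, were the strongest under abiraterone. Under Romidepsin KMT2A had the most labelled exons of this list, which does not hold BPTF, at exons 25, 27, 32 and 33 of 36. HDAC4 had 3 labelled exons. HDAC3, a deacetylase of class I, had 2, and its highest fold of 5.16 was the highest of the list under Romidepsin. Zinc finger genes had 29 of 324 (8.95%) and 35 of 414 (8.45%).

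Protocadherins had the lowest exon share among the groups with 20 or more exon and intron peaks, with 0 of 81 under abiraterone, for which the upper limit of the interval is 4.45%, and 3 of 85 under Romidepsin (3.53%). Adhesion receptors of the ADGR family had 4 of 85 (4.71%) and 9 of 110 (8.18%), and ADAMTS proteases 3 of 57 (5.26%) and 9 of 94 (9.57%). Mucins had 3 of 12, all on MUC2, and 2 of 15. In the groups with exon peaks, their median fold lay between 2.76 and 3.67 under abiraterone, where it is 2.83 over all peaks, and between 2.61 and 3.48 under Romidepsin, where it is 2.61. The highest values came from groups of 2 and 3 exon peaks.

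SREBF1, the transcription factor that drives fatty acid and sterol synthesis, had 0 exon labels, 0 intron labels and 0 5′ UTR labels in both lists. Its promoter peaks numbered 2 under abiraterone, with folds of 2.85 and 2.82 at -441 and -1041 bp from their start sites, and 1 under Romidepsin, with a fold of 2.61 at -775 bp. The first abiraterone peak (chr17:17722129-17722716) and the Romidepsin peak (chr17:17727719-17728603) were assigned to other start sites of SREBF1 than the second abiraterone peak (chr17:17741366-17741827). They lie downstream of the start site of that peak. Since the promoter label precedes the exon label, the labels cannot show whether these peaks cover exons of SREBF1. MIR33B, the microRNA in an intron of SREBF1, was the nearest gene of 0 peaks. Among Romidepsin peaks whose nearest start site was that of SREBF1, 1 had an exon label, and it belonged to the neighbouring gene TOM1L2, at exon 10 of 14 (chr17:17765576-17766120, fold 3.48). Other genes of sterol and fatty acid synthesis had 2 exon peaks among 26 exon and intron peaks under abiraterone (7.69%, interval 0.946 to 25.1). These were on ELOVL6 (fold 4.66) and LSS (fold 2.69). Under Romidepsin these genes had 3 of 34 (8.82%, interval 1.86 to 23.7), of which 2 were on ACACB and 1 on MVK. Both intervals include the share over all genes, 6.39% and 8.02%. Prostate and androgen genes had 1 of 12 under abiraterone, on TMPRSS2 (fold 2.85), and 0 of 14 under Romidepsin.

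Few exon peaks recurred between the lists. A Romidepsin peak overlapped 89 of 1834 abiraterone exon peaks by at least 1 bp (4.85%, interval 3.92 to 5.94), beside 4.04% of all abiraterone peaks. An abiraterone peak overlapped 100 of 3020 Romidepsin exon peaks (3.31%, interval 2.70 to 4.01), beside 2.90% of all Romidepsin peaks. Intron peaks given the widths of the exon peaks, a comparison added after seeing the data, were overlapped in 4.23% and 3.20%. The exon shares thus lay near the background. Where an abiraterone exon peak was overlapped, the Romidepsin peak was itself an exon peak in 65 of 89 cases and an intron peak in 20.

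The same exon of the same transcript was labelled in both lists in 82 cases, which is 4.60% of the 1783 exons labelled under abiraterone and 2.75% of the 2978 labelled under Romidepsin. In 61 of these the peaks overlapped. Exon labels fell on the same gene, at any exon, in 421 cases, 26.4% of the abiraterone genes and 16.7% of the Romidepsin genes. The same counts were not computed for introns, so the 82 exons and 421 genes have no background beside them. LINC01004, a long noncoding RNA, was the only one of the 82 exons with a −log10 q of 2 or more in both lists, at 2.66 and 3.67, with folds of 3.74 and 5.88. MYOC, which encodes myocilin, held the highest place when exons were ordered by the poorer of their ranks by fold, at exon 3 of 3 with folds of 5.67 under abiraterone (chr1:171605120-171605508) and 4.30 under Romidepsin (chr1:171605179-171605560). Next came an exon of a transcript without a gene number. It had the same Romidepsin fold as MYOC, so their order rested on the tie rule (p-value, then chromosome and start). RPL35A, a ribosomal protein gene, followed at exon 4 of 5 with folds of 4.63 and 4.11. TSPAN18 at exon 7 of 9, LAMB4 at exon 12 of 34, BOD1L1 at exon 2 of 7, DNAH10 at exon 19 of 78 and DAPK2 at exon 11 of 13 also had overlapping peaks. At exon 4 of 39 of URB1, a gene of ribosome assembly, the peak was chr21:33755861-33756170 in both lists. It was the only peak of the whole lists with the same start and end, it was chosen after its values were seen, and its folds were 2.85 and 2.61.

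**Figure D5:**
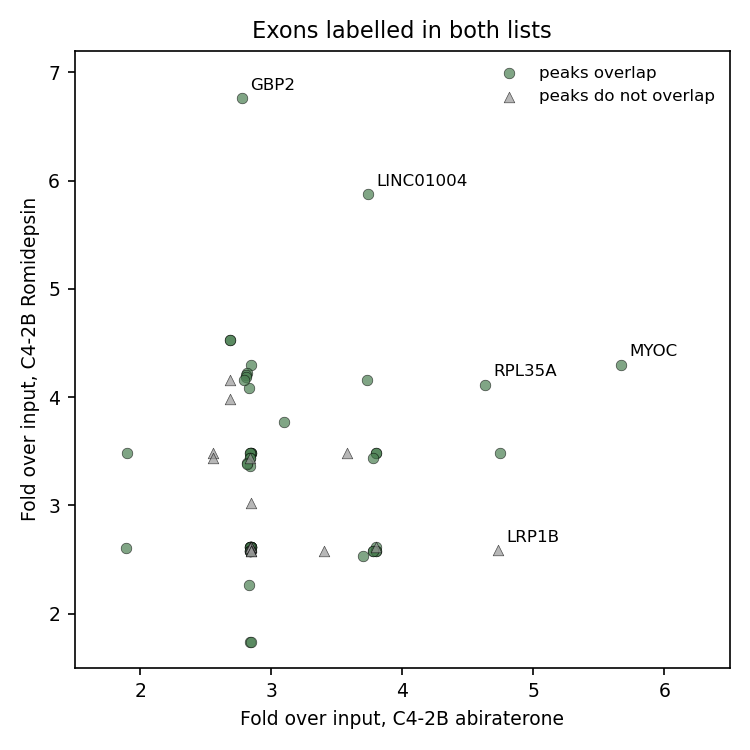
Exons of genes with a gene number labelled in both lists, by fold over input under abiraterone (horizontal axis) and under Romidepsin (vertical axis); circles mark overlapping peaks and triangles peaks on the same exon that do not overlap. Folds are not normalized between the libraries, most points sit on a few tied values, and MYOC (5.67 and 4.30), LINC01004 (3.74 and 5.88) and GBP2 (2.78 and 6.76) stand off from them.

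Several exons were labelled in both lists for 18 genes or transcripts, a count for which no background was computed. HMCN1, an extracellular matrix gene of 107 exons, was labelled at exons 32, 45 and 65 under abiraterone and at exons 5, 37, 39 and 98 under Romidepsin. ASH1L, a histone H3 lysine 36 methyltransferase, was labelled at exons 3, 11 and 12 of 28 and at exons 5, 15 and 25. These genes shared no labelled exon between the lists. LAMB4 was labelled at exons 12 and 14 of 34 and at exons 12 and 30. BPTF, ITPR1, RYR1, SEC24D, COL15A1 and DNAH10 also belonged to these genes.

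The 5′ UTR peaks were fewer and lay closer to start sites than the exon peaks. The median distance to the nearest start site was 10950 bp under abiraterone and 10302.5 bp under Romidepsin, against 19424 bp and 15785 bp for exon peaks. Of the 193 and 316 peaks, 92 and 152 lay within 10000 bp of a start site, and none can lie within 3 kb because such peaks carry the promoter label. A 5′ UTR label names no transcript, so the gene given is the one with the nearest start site, and 162 and 266 peaks lay downstream of it. The peaks fell near 189 and 303 genes. Under abiraterone the highest folds were at PRPF39, a splicing factor (6.03), PAIP2B, a regulator of translation (5.70), and RIC3, a chaperone of acetylcholine receptors (5.60). Under Romidepsin they were at ERCC6L2 (5.94), a gene of DNA repair, MCTP2 (5.87) and HSD17B4, an enzyme of peroxisomal fatty acid oxidation.

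A peak of the other list overlapped 12 of 193 abiraterone 5′ UTR peaks (6.22%, interval 3.25 to 10.6), beside 4.04% of all its peaks. It overlapped 15 of 316 Romidepsin 5′ UTR peaks (4.75%, interval 2.68 to 7.71), beside 2.90% of all peaks. Both intervals include the background share. In 10 pairs both peaks carried the 5′ UTR label. PFKM, the muscle form of phosphofructokinase, had folds of 2.69 under abiraterone and 5.16 under Romidepsin, and its abiraterone peak chr12:48523966-48524325 lay within the Romidepsin peak chr12:48523953-48524395. FOXRED1, needed for assembly of respiratory complex I, had folds of 3.80 and 3.48. The other pairs were at SH3BP5L, DCLRE1C, JCAD, PELI3, NPRL3, IL17REL, DNAH11 and TP53INP1.

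Some exons carried more than 1 peak, 45 exons under abiraterone and 33 under Romidepsin. The narrowest width, 125 bp, was also the commonest, at 10.4% and 8.28% of exon peaks and 13.1% and 13.3% of all peaks. Whether neighbouring peaks on an exon are separate sites was not tested. A single-exon transcript on chromosome 12 without a gene number had the most, with 7 and 9 peaks. AKAP11 had 3 peaks on exon 8, and so did VCAN, a large proteoglycan of the extracellular matrix, on exon 8 of 15, both under Romidepsin. Across the chromosomes other than Y, the exon share of all peaks was highest on chromosome 19, at 7.13% under abiraterone and 7.49% under Romidepsin. It was lowest on chromosome 13 under abiraterone (1.55%) and on chromosome X under Romidepsin (1.86%). Chromosome 19 is known to be rich in genes.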

How the data were processed

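The peak lists of C4-2B cells held H2A-K130ac ChIP-seq from 1 library per treatment. Per the labels, each library had 40 to 50 M paired-end reads, which were aligned with Bowtie 2 and passed to MACS. The submitters' notes name MACS2 without a version. The authors deposited narrow peaks over input with a score, a fold, and −log10 p- and q-values, and annotated copies of these lists. The score was 10 times the −log10 p-value, cut to a whole number, and was not used further. Fold over input, a ratio to the control library, was used as deposited. Read counts per peak are unknown, so depth per peak is unknown. The first peak of each list had become the header of the annotated copy, which left 67806 of 67807 and 91398 of 91399 peaks. The conservative and optimal annotated tables were identical. The methods give a vehicle control and broad peaks, which differs from these files. The paper states that samples were run in duplicate, while the records list 1 library per treatment. Whether duplicates were pooled is not given in the sources used here.

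The notes name the build hg38, but a peak ended at 249191832 on chromosome 1, beyond its end in GRCh38, and the transcripts are of the UCSC hg19 annotation. Coordinates are therefore given as hg19. Exon lengths and sequences were not used here. Gene numbers were named through RefSeq (GRCh38.p14), which matched 1620 of 1627 and 2750 of 2753 exon labels with a gene number. A further 207 and 267 labels had none.

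Labels were parsed with Python 3.11.15 and pandas 2.3.3, and the steps were checked on simulated data. Intervals were computed with scipy 1.17.1. For 1 comparison intron peaks were weighted to the widths of the exon peaks. Named genes were those with the most labelled exons (10 a list), the highest folds (5 of each label a list), exons in both lists (12), several exons in both lists (10), the leading members of each gene group (3), and the most peaks on 1 exon (3), with SREBF1 and MIR33B. Some genes that these rules name are not reported here. The genes with 3 or more exon peaks and 0 intron peaks, and the genes with many intron peaks, were chosen after their values were seen. The members, groups and rules were chosen with earlier results of these data known. Alternatives were a stricter q, the conservative set, chromosome Y left out, the 5000 highest folds, stricter overlaps and other definitions of a labelled exon.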

Additional observations from a re-analysis of the deposited data

How the results depend on the processing

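No paired analysis was possible because there was 1 library per treatment, and for the same reason no replicate could be left out. The conservative set equals the set used, so it tests nothing and is left out of the counts. Of 86 other values under alternatives, 34 stayed within the interval of the value reported (or within 1.5 times a count) and 52 moved. Whether any result changed direction was not checked. The cause of each shift was not tested, except that stricter settings leave fewer peaks.

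With peaks of a −log10 q of 2 or more, genes with several labelled exons numbered 14 and 0 (abiraterone first, Romidepsin second in each pair) and exon peaks in the gene groups 21 and 3. Exons labelled in both lists fell to 1. Overlap with the other list, filtered alike, was 0.211% and 1.41% for exon peaks and 0% and 0% for 5′ UTR peaks. The overlap of all peaks under this filter was not computed, so these values have no background beside them. The median exon fold was 3.80 and 5.23 and the median width 433 and 499 bp. In the Romidepsin list the exon share became 2.85%, the 5′ UTR share 0.561%, internal exons 78.9% and last exons 15.5%. At a −log10 q of 1.3, 87.9% and 12.02% of exon peaks and 87.0% and 15.2% of 5′ UTR peaks passed. The share of all peaks passing that level was not computed. Among the 5000 peaks of highest fold, first exons held 0.719% and 0.571% of exon peaks, the 5′ UTR share was 0.24% and 0.58%, genes with several labelled exons numbered 4 and 0, the median fold was 4.72 and 4.35 and the width 430 and 496 bp. In that set the Romidepsin exon share was 3.5%, internal exons 78.3% and last exons 15.4%.

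In transcripts of 5 or more exons, first exons held 0.384% and 0.345%, internal exons 91.7% and 93.2% and last exons 7.94% and 6.48%. Counting only exon labels of the gene with the nearest start site gave an exon share of 1.77% and 2.12%, and leaving out peaks of 400 bp or more gave 2.36% and 2.69%. With 3 or more different exons, 18 and 61 genes counted. Where the shared part had to cover 50% of each of both peaks, it was found for 1.64% and 0.993% of exon peaks. The same rule gave 2.59% and 1.58% of 5′ UTR peaks, beside 1.29% and 0.954% of all peaks. The summit rule gave 2.62% of Romidepsin exon peaks. Counting the same gene at any exon gave 421 shared labels, again without a background.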
